A study of Rattus norvegicus with 22 samples.

Results

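The genes described here are 59 rat genes with known roles in copying and dividing the genome, 24 of DNA replication and 35 of mitosis, measured in tongue tumors and in the adjacent tongue tissue of the same rats. The rule uses names and no measured value. A gene was counted as measured where the gene name in the array's annotation was its symbol, and its brightest probe over all 22 arrays was used. By this rule 55 of the 59 genes were found, 22 of replication and 33 of mitosis, among 22436 gene names on the array. Cdc45, Orc1, Mki67 and Cdk1 had no probe under these symbols. Probes for Cdc45, Orc1 and Cdk1 were found by accession under the older names Cdc45l, Orc1l and Cdc2, and are given apart from the 55. Mki67 is named only.

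The samples were 11 pairs of oral squamous cell carcinoma (OSCC) and adjacent phenotypically normal tissue from the tongues of 11 male F344 rats, an inbred strain, killed at about 33 weeks of age. The deposited protocol gives these rats 4-nitroquinoline-1-oxide (4-NQO), a DNA-damaging carcinogen, in drinking water (20 ppm, over 10 weeks), and tissue was taken 23 to 26 weeks after first exposure. The labels give treatment with 4-NQO for the tumors and none for the normal pieces, and call every animal untreated in the titles, whereas the protocol and the paper take both tissues from the same treated rats. The pairs are named here by animal number, and by the paper's account normal tissue means tissue of exposed rats. Each piece was hybridized to its own one-color Agilent array of 30367 probes. All levels below are log2 signals relative to the 75th percentile of the array, so a level of 0 is the 75th percentile, and differences are OSCC minus normal within a rat.

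Cells copy their DNA in S phase. Licensing factors load the ring-shaped MCM helicase on origins, the helicase is then switched on, and polymerases, a sliding clamp and a steady supply of nucleotides complete the copy. In mitosis, cyclins and kinases drive entry, motors and kinetochores attach chromosomes to the spindle, a checkpoint holds division until all are attached, and the anaphase-promoting complex then releases it. Tongue epithelium renews itself from a dividing basal layer, and carcinomas are known for unchecked division.

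Genes of both groups are switched on by cell cycle factors that read short promoter elements. They are shown because some of them differ in frequency between the replication and the mitosis genes. Replication genes are known targets of E2F factors. Many mitosis genes carry a cell cycle homology region (CHR) read by the DREAM and MuvB complexes, often beside CCAAT boxes. The 150 bases before the start site of 3 replication genes and 3 mitosis genes follow, from RefSeq promoters on assembly GRCr8, printed 5′ to 3′ on the gene's strand, with the E2F-type element in capitals for Mcm2 (chr4:122918095-122918244, minus strand), Mcm6 (chr13:42404353-42404502, minus strand) and Gins1 (chr3:160184770-160184919, plus strand). Capitals mark the CHR and CCAAT letters, read on either strand, for Cdc20 (chr5:137255800-137255949, minus strand), Prc1 (chr1:143659331-143659480, plus strand) and Pttg1 (chr10:28406327-28406476, minus strand). The sequences of Mcm6 and Gins1 also hold CCAAT letters on the reverse strand, which are left in lower case.
Mcm2: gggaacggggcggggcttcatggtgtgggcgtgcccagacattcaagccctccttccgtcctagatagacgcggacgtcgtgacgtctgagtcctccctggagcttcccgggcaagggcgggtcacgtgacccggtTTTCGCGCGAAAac
Mcm6: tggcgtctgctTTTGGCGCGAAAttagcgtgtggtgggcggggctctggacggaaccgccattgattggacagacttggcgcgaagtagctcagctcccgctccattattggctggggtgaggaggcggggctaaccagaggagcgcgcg
Gins1: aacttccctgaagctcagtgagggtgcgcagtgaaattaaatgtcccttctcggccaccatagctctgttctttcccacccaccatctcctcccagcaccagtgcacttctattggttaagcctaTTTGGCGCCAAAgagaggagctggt
Cdc20: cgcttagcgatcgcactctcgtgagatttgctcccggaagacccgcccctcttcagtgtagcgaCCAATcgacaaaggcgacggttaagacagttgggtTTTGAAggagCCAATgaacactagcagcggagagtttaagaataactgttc
Prc1: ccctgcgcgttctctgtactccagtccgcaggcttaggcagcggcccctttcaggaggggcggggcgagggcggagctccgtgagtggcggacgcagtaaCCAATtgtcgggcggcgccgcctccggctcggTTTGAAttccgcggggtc
Pttg1: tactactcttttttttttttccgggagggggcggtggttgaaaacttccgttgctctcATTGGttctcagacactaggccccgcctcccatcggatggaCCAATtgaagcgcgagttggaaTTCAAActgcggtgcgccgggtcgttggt

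Promoters were given for 46 of the 55 genes, 19 of replication and 27 of mitosis, as windows of 300 bases from 250 before to 50 after the start. An E2F-type element, searched on both strands as TTTGGCGC, TTTCCCGC, TTTCGCGC, TTTGGCGG or TTTCCCGG, was found in 12 of 19 replication promoters and in 1 of 27 mitosis promoters, against 3.62% of all 33469 promoters in the table. A CHR, searched as TTTGAA or TTCGAA, was found in 4 of 19 replication promoters and in 18 of 27 mitosis promoters, against 19.7% of all promoters. CCAAT was found in 13 of 19 and 18 of 27, against 37.5%, so it did not set the groups apart. In the 250 bases before the start alone, the E2F-type element was in 7 and 1 and the CHR in 4 and 11 of these promoters, so several matches lay downstream of the start. The first search letters of the E2F group and their reverse complements overlap in palindromic sites such as that of Gins1, which was counted once. A match is a description of these letters and not a binding site.

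Averaged over the 11 pairs, few of these genes differed between OSCC and normal tissue. Of the 55 genes, 3 were called higher in OSCC and 0 lower by limma, fitted with a term for each rat and one for tissue, where a call is a Benjamini-Hochberg adjusted p below 0.05 over all probes and a difference of at least 2-fold. The called genes were Rrm2, the small subunit of ribonucleotide reductase, Cdc6, which loads the helicase on origins, and Cdc25c, a phosphatase that activates the mitotic cyclin kinase. Over all probes 13.8% were called, 6.86% higher and 6.97% lower, so the share of these genes that was called was not above that of the array. At an unadjusted p below 0.05 and any fold, 8 of the 55 were higher and 1 was lower, against 54.9% of all probes in either direction. The means of 45 genes were above 0 and their median difference was 0.26 (0.33 for replication, 0.20 for mitosis), while the median of all probes was -0.24. At an adjusted p below 0.05 and any fold, 5 were higher and 1 was lower, against 44.0% of all probes. The calls changed when 1 pair was left out, although each called gene was higher in 9 of 11 pairs. Without the pair of animal 13 (6.32% of all probes higher) or of animal 26 (6.49%), 0 genes were called. Without that of animal 11 (5.96%) or of animal 25 (6.23%), 1 was called. Below, a difference is given with its standard error from limma over the 11 pairs and its adjusted p.

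The spread among the tumors was wide for the mitosis genes, and near that of all probes for the replication genes. For 55 of 55 genes the SD over the 11 arrays was larger in OSCC than in normal tissue, which was so for 83.2% of all probes. The median SD of the replication genes was 0.29 in normal tissue and 0.67 in OSCC, and that of the mitosis genes was 0.48 and 1.27, against 0.37 and 0.63 over all probes. The ranges of the tissues overlapped for every one of the 55 genes. In bulk tissue, fewer dividing cells and less RNA per cell cannot be told apart.

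**Figure D1:**
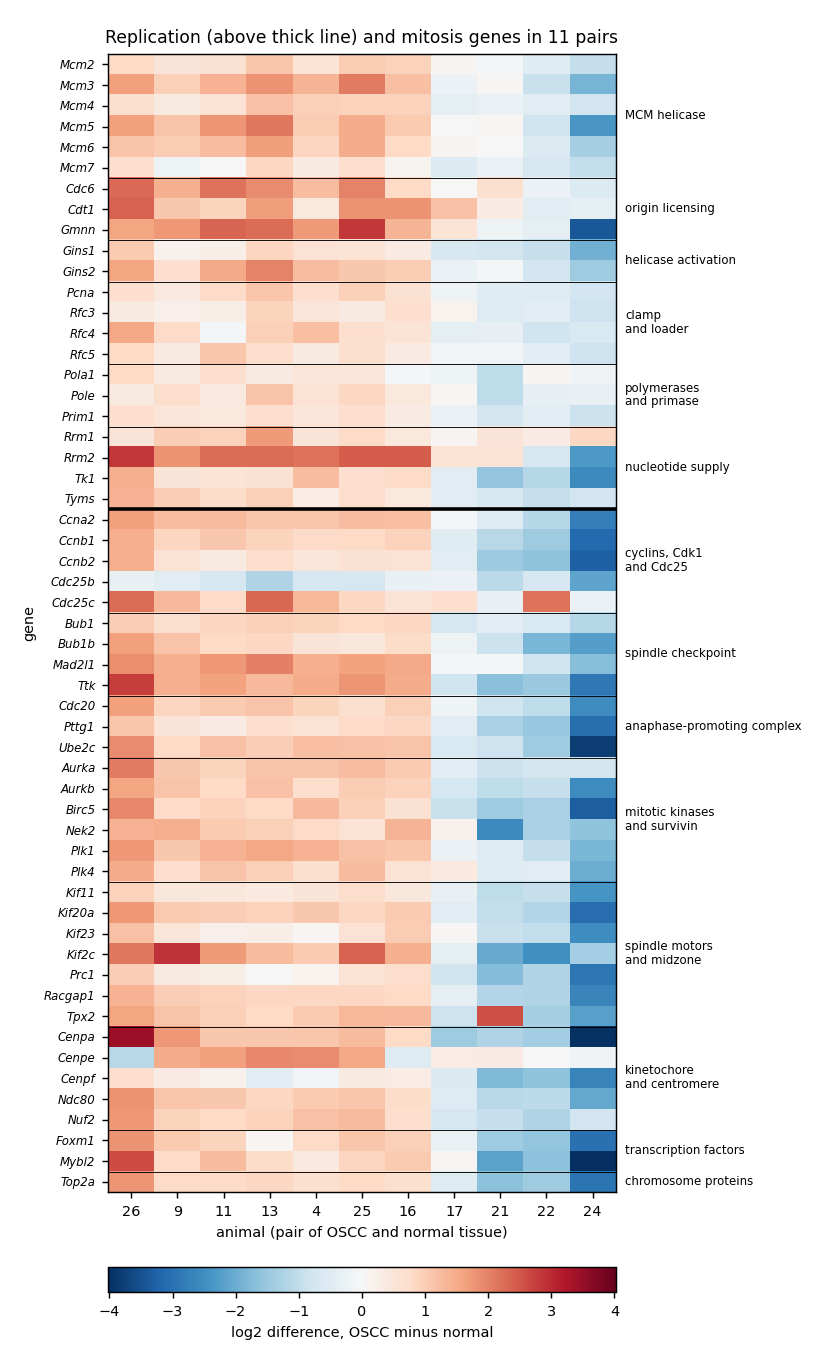
Log2 difference (OSCC minus normal) of the 55 genes, in rows grouped by role, in the 11 pairs, in columns ordered by the median of the mitosis genes. The columns of animals 17, 21, 22 and 24 are mostly blue (lower in OSCC) and the other 7 mostly red, and Cdc25b is blue and Rrm1 red in all 11.

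The pairs divided into those in which most of the genes were higher and those in which most were lower. In the pairs of animals 4, 9, 11, 13, 16, 25 and 26, between 1 and 3 of the 55 genes were lower in OSCC. In the pair of animal 17, 39 were lower, in that of animal 21, 46, in that of animal 22, 51, and in that of animal 24, 54. Of all probes, 46.9%, 34.3%, 43.8% and 43.0% were lower in these 4 pairs in that order, and 61.7% to 65.9% in the other 7. The division of the pairs was read from the outcome itself, so no test or mean was taken over it.

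Where most genes were lower in OSCC, the mitosis genes were further below 0 than the replication genes. The replication median was -0.15 and the mitosis median -0.41 in the pair of animal 17, -0.23 and -1.03 in animal 21, -0.51 and -1.21 in animal 22, and -0.83 and -2.52 in animal 24. At least 2-fold lower in OSCC were 8 of 22 replication and 29 of 33 mitosis genes in animal 24, 1 and 23 in animal 22, 3 and 18 in animal 21, and 0 and 1 in animal 17. Of all probes, 6.72%, 3.69%, 5.74% and 13.0% were at least 2-fold lower in these pairs, in that order. In the other 7 pairs the medians were 0.63 for replication and 0.89 for mitosis in animal 4, 0.69 and 1.00 in animal 9, 0.76 and 0.94 in animal 11, and 1.14 and 0.92 in animal 13. In animals 16, 25 and 26 they were 0.73 and 0.84, 0.89 and 0.87, and 1.10 and 1.65. The gap between the groups, replication minus mitosis, thus ran from -0.55 (animal 26) to 0.22 (animal 13) in these 7 pairs, and was 0.27, 0.80, 0.70 and 1.69 in animals 17, 21, 22 and 24. In size, the gap of animal 17 was smaller than those of animals 9 (-0.31) and 26. No test was made of this gap.

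**Figure D2:**
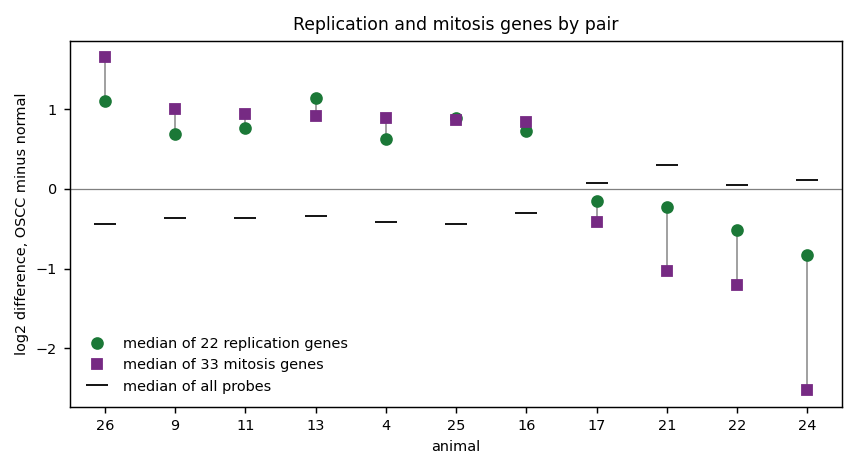
Median log2 difference (OSCC minus normal) of the 22 replication genes (circles), the 33 mitosis genes (squares) and all probes (dashes) in each of the 11 pairs. The mitosis median is -2.52 in animal 24 while the replication median there is -0.83, and the medians of all probes stay between -0.44 and 0.30.

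The median of all probes was between -0.44 and -0.30 in the 7 pairs in which most of the genes were higher, and between 0.05 and 0.30 in the other 4. The sign of the latter depended on the scaling, and it was -0.02 to -0.04 in the 4 pairs under quantile normalization, and -0.10 in animal 22 and -0.31 in animal 24 with arrays scaled to their median. Under normexp background correction only 5 of the 55 genes were lower in animal 17 and their median there was 1.05, against 1.57 for all probes. By sign alone this pair then did not stand with animals 21, 22 and 24. Relative to all probes its median was -0.52, beside -0.59, -0.59 and -1.21 in those 3. Of the other 7 pairs, animal 9 was also below all probes, at -0.42 (0.87 against 1.29), and the rest were at 0.66 to 1.55. Of these 55 genes, 31 (8 of replication and 23 of mitosis) were above 0 in all 7 pairs and below 0 in all 4. The same was so for 1.27% of all probes, but the pairs were divided by the signs of these genes, so the comparison is a description only. The pair of animal 24 held the lowest difference of 43 genes. With each gene centered on its mean over the 22 arrays, the mitosis median was between -0.78 and 0.76 on the normal arrays, and was -2.33 in the tumor of animal 24, -1.40 in that of animal 22, -1.01 in that of animal 17 and -0.64 in that of animal 21, against 0.50 to 1.63 in the other 7 tumors.

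Within the pairs where most genes were lower, single genes had the opposite sign. In animal 24 only Rrm1 was higher in OSCC (0.84). In animal 22 the 4 higher genes were Rrm1, Pola1, Cenpe and Cdc25c, of which Cenpe and Cdc25c were not well above background on either array of that rat. In animal 21, 7 of the 9 higher genes were of replication, among them Cdc6 (0.65) and Rrm2 (0.56), and the others were Cenpe, not well above background on either array, and Tpx2 (2.58). Tpx2, which targets Aurora A to the spindle, was measured by 1 probe, and its level in that tumor was the highest of all 22 arrays, in contrast to the other spindle genes of the same tumor. Not well above background were 17 of the 55 genes in the tumor of animal 17, 9 in that of animal 21, 14 in that of animal 22 and 15 (2 of replication and 13 of mitosis) in that of animal 24, against 0 to 2 in the other tumors, so the size of these differences is limited by background.

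With the study's own remark that expression was variable in animals 21, 22 and 24, the comparison was also made without these 3 pairs, which are also pairs in which most of the genes were lower. Of the 55 genes, 16 were then called higher and 0 lower, 8 of replication and 8 of mitosis, against 8.69% of all probes called higher and 14.1% lower. The replication genes were Mcm3, Mcm5, Mcm6, Gins2, Cdc6, Cdt1, Gmnn and Rrm2, and the mitosis genes were Ccna2, Cdc25c, Mad2l1, Ttk, Aurka, Plk1, Kif2c and Cenpa. The median difference over the 8 remaining pairs was 0.67 for replication and 0.88 for mitosis, against -0.36 for all probes. Because these pairs stood out in the same measurement, the larger count describes the remaining pairs and is no independent support.

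Nucleotide supply held the largest difference of all. Rrm2, at chr6:42359210-42359269 on assembly rn4, ranged from -0.25 to 1.11 (median 0.53) over normal arrays and from -1.36 to 3.35 (median 2.45) over OSCC arrays. The tumors of animals 22 and 24 were below their normal partners, and the other 9 were above. The difference was 1.30 ± 0.44 (adjusted p = 0.033), 2.46-fold. The call was lost in 7 of the 11 fits that left out 1 pair, those without animal 4, 9, 11, 13, 16, 25 or 26, where the adjusted p was 0.064 to 0.072 and the difference 1.14 to 1.24. Its second probe was called too (2.61-fold; adjusted p = 0.02 by limma). Rrm1, the large subunit of the same enzyme, at chr1:159936096-159937814, ranged from -2.08 to -1.06 (median -1.52) over normal arrays and from -1.26 to 0.00 (median -0.72) over OSCC arrays. It was higher in OSCC in 11 of 11 pairs, animal 24 included, with a difference of 0.70 ± 0.14 (adjusted p = 0.0026) that was 1.62-fold higher and so not called. Tk1, thymidine kinase of the salvage route, ranged from -1.0 to 0.53 (median -0.26) over normal arrays and from -2.04 to 0.95 (median 0.24) over OSCC arrays, with a difference of 0.01 ± 0.35 (adjusted p = 0.99). Tyms, thymidylate synthase, ranged from -4.26 to -2.92 (median -3.23) over normal arrays and from -4.54 to -2.28 (median -2.85) over OSCC arrays, with a difference of 0.25 ± 0.23 (adjusted p = 0.38). These values leave Rrm1 as the one gene of the 55 that was higher in every pair.

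**Figure D3:**
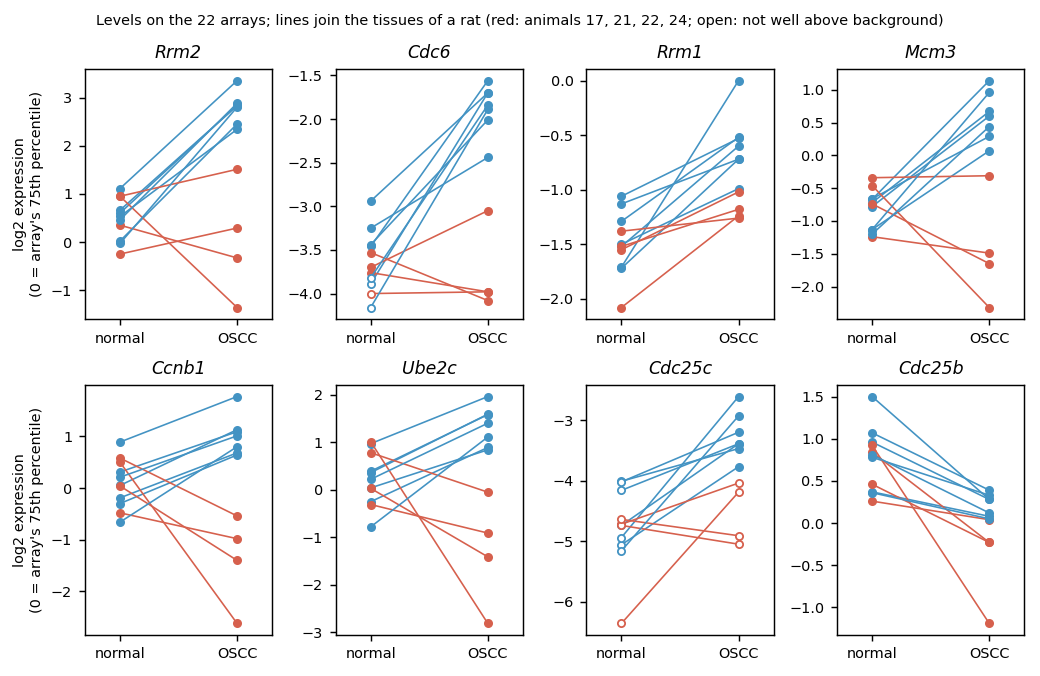
Log2 levels of 8 genes on the 22 arrays, where 0 is the 75th percentile of the array, lines join the tissues of a rat, red marks animals 17, 21, 22 and 24, and open points were not well above background. All 11 lines slope up for Rrm1 and down for Cdc25b, whereas for Ccnb1 and Ube2c the red lines slope down and the blue lines up.

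Origin licensing was the role in which all members had a mean difference near 1. Cdc6, at chr10:87696993-87697052, ranged from -4.16 to -2.94 (median -3.70) over normal arrays and from -4.08 to -1.56 (median -2.01) over OSCC arrays. It stood well above background on 7 arrays of normal tissue and 10 of OSCC, and differed by 1.06 ± 0.28 (adjusted p = 0.011), higher in 9 of 11 pairs. Its call was lost without animal 11, 13, 25 or 26. Cdt1, which works with Cdc6 to load the helicase, ranged from -4.82 to -3.24 (median -3.71) over normal arrays and from -4.25 to -1.99 (median -2.80) over OSCC arrays. Its difference of 0.98 ± 0.26 (adjusted p = 0.012) passed the adjusted p and missed the 2-fold limit at 1.97-fold. Gmnn encodes geminin, the inhibitor of Cdt1, and ranged from -4.77 to -2.78 (median -3.65) over normal arrays and from -6.28 to -1.43 (median -2.13) over OSCC arrays. The range in OSCC was the wider, and 4 normal and 8 OSCC arrays stood clear of background. The mean difference was 0.95 ± 0.48 (adjusted p = 0.12). Orc1l, the older name under which Orc1 of the origin recognition complex was found, was called higher, with a difference of 1.14 (SE 0.28; adjusted p = 0.0079 by limma).

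Of the 6 subunits of the MCM helicase 0 were called (1 had an unadjusted p below 0.05), although all 6 were well above background on every array. Mcm3 had the largest difference of the ring. It ranged from -1.24 to -0.34 (median -0.74) over normal arrays and from -2.32 to 1.14 (median 0.29) over OSCC arrays, with a difference of 0.68 ± 0.35 (adjusted p = 0.12) and of -1.87 in animal 24. Mcm5 ranged from -2.19 to -1.42 (median -1.76) over normal arrays and from -3.75 to 0.37 (median -0.63) over OSCC arrays, with a difference of 0.65 ± 0.36 (adjusted p = 0.15). Mcm6 ranged from -1.84 to -1.19 (median -1.37) over normal arrays and from -2.60 to 0.28 (median -0.34) over OSCC arrays, with a difference of 0.59 ± 0.26 (adjusted p = 0.078), the smallest adjusted p of the subunits. For each of these 3 the highest normal array lay below the OSCC median. Mcm2 ranged from -0.65 to -0.09 (median -0.21) over normal arrays and from -1.06 to 0.92 (median 0.40) over OSCC arrays, with a difference of 0.37 ± 0.20 (adjusted p = 0.13), while its second probe was higher in 10 of 11 pairs (1.66-fold; adjusted p = 0.008 by limma). Mcm4 ranged from 0.16 to 0.95 (median 0.66) over normal arrays and from 0.05 to 1.87 (median 1.14) over OSCC arrays, with a difference of 0.34 ± 0.20 (adjusted p = 0.17). Mcm7, in contrast, had equal medians: it ranged from 1.43 to 2.12 (median 1.86) over normal arrays and from 0.88 to 2.75 (median 1.86) over OSCC arrays, higher in 6 pairs and lower in 5.

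The helicase is switched on by Cdc45 and the GINS complex. Gins2 ranged from -3.11 to -2.09 (median -2.76) over normal arrays and from -3.57 to -0.78 (median -1.75) over OSCC arrays, with a difference of 0.60 ± 0.30 (adjusted p = 0.12). Gins1 ranged from -2.11 to -0.97 (median -1.45) over normal arrays and from -2.91 to -0.42 (median -1.21) over OSCC arrays, with a difference of -0.04 ± 0.26 (adjusted p = 0.91), the smallest size in this role. Cdc45l differed by 0.22 (SE 0.22; adjusted p = 0.43 by limma). The sliding clamp Pcna, long used as a stain for proliferating cells, ranged from 1.40 to 2.02 (median 1.60) over normal arrays and from 1.13 to 2.64 (median 2.08) over OSCC arrays, with a difference of 0.29 ± 0.19 (adjusted p = 0.22). The differences of its loader subunits were of similar size. Rfc4 ranged from -2.56 to -1.25 (median -1.81) over normal arrays and from -2.34 to -0.63 (median -1.42) over OSCC arrays, with a difference of 0.32 ± 0.23 (adjusted p = 0.25). Rfc5 ranged from -0.38 to 0.15 (median -0.12) over normal arrays and from -0.94 to 1.01 (median 0.28) over OSCC arrays, with a difference of 0.26 ± 0.17 (adjusted p = 0.24). Rfc3, also a subunit of the loader, ranged from -0.63 to 0.03 (median -0.43) over normal arrays and from -0.91 to 0.46 (median -0.08) over OSCC arrays, with a difference of 0.15 ± 0.16 (adjusted p = 0.46).

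The polymerases and primase had the smallest median difference of the replication roles (0.17). Pola1, the catalytic subunit that starts each strand, ranged from -3.51 to -2.68 (median -3.25) over normal arrays and from -3.69 to -2.26 (median -2.92) over OSCC arrays, with a difference of 0.17 ± 0.16 (adjusted p = 0.37). Prim1, the primase that makes its RNA primer, ranged from -0.84 to -0.27 (median -0.52) over normal arrays and from -1.14 to 0.26 (median -0.18) over OSCC arrays, with a difference of 0.13 ± 0.18 (adjusted p = 0.56). Pole, the leading strand polymerase, ranged from -5.22 to -3.63 (median -4.28) over normal arrays and from -5.48 to -3.05 (median -3.95) over OSCC arrays and stood clear of background on 5 OSCC arrays and on 0 of normal tissue. Its difference was 0.26 ± 0.18 (adjusted p = 0.25), and no lower limit above 1-fold could be set for it.

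Among the cyclins and the Cdc25 phosphatases, the paralogs Cdc25b and Cdc25c had opposite signs. Cdc25b, at chr3:118903421-118903480, ranged from 0.26 to 1.50 (median 0.81) over normal arrays and from -1.19 to 0.39 (median 0.08) over OSCC arrays. It was lower in OSCC in 11 of 11 pairs, the one gene of the 55 of which this was so, with a difference of -0.77 ± 0.17 (adjusted p = 0.0041) that was 1.7-fold lower and so not called. Its second probe was lower in 10 of 11 pairs (adjusted p = 0.027 by limma). Cdc25c, at chr18:27208637-27208696, ranged from -6.36 to -4.01 (median -4.74) over normal arrays and from -5.05 to -2.61 (median -3.47) over OSCC arrays, and stood clear of background on 7 OSCC arrays and on 0 of normal tissue. Its difference was 1.06 ± 0.26 (adjusted p = 0.0081), and because its normal values were near background the fold is given as at least 1.11-fold higher in OSCC. Its call was lost without animal 13, 22 or 26.

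Both phosphatases activate the cyclin kinase, whose own parts did not pass. Ccna2, cyclin A2, ranged from -1.0 to 0.28 (median -0.37) over normal arrays and from -2.97 to 1.38 (median 0.56) over OSCC arrays, with a difference of 0.39 ± 0.38 (adjusted p = 0.4). Ccnb1, the cyclin that carries cells into mitosis, ranged from -0.66 to 0.89 (median 0.05) over normal arrays and from -2.62 to 1.77 (median 0.68) over OSCC arrays, with a difference of 0.06 ± 0.39 (adjusted p = 0.91). Its paralog Ccnb2 ranged from -1.89 to -0.45 (median -1.09) over normal arrays and from -4.05 to 0.26 (median -0.76) over OSCC arrays, with a difference of -0.18 ± 0.38 (adjusted p = 0.7). All 3 cyclins were higher in the same 7 pairs and lower in the same 4. Cdc2, the older name under which Cdk1 was found, differed by 0.30 (SE 0.43; adjusted p = 0.57 by limma), from -3.29 in animal 24 to 1.89 in animal 26.

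Of the spindle checkpoint, which holds anaphase until chromosomes are attached, 0 of 4 genes were called (1 had an unadjusted p below 0.05). Mad2l1, its soluble inhibitor, ranged from -2.05 to -1.25 (median -1.72) over normal arrays and from -3.0 to 0.70 (median -0.43) over OSCC arrays, with a difference of 0.81 ± 0.35 (adjusted p = 0.071), the largest among mitosis genes after Cdc25c. Ttk, the kinase at its head, ranged from -3.72 to -1.12 (median -2.06) over normal arrays and from -4.94 to 0.17 (median -0.95) over OSCC arrays, with a difference of 0.46 ± 0.50 (adjusted p = 0.46). Bub1, a kinetochore kinase of the checkpoint, ranged from -1.27 to -0.37 (median -0.96) over normal arrays and from -1.94 to 0.60 (median -0.33) over OSCC arrays, with a difference of 0.28 ± 0.23 (adjusted p = 0.32). Its second probe, which no array measured well above background, was lower in 9 of 11 pairs (adjusted p = 0.033 by limma). Bub1b, which binds Cdc20, ranged from -3.45 to -1.45 (median -2.22) over normal arrays and from -4.44 to -0.61 (median -1.49) over OSCC arrays, with a difference of 0.09 ± 0.34 (adjusted p = 0.83). Each of the 4 was lower in animals 17, 21, 22 and 24 and higher elsewhere.

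The pair of animal 24 held the lowest difference of most of the 55 genes, among them those around the anaphase-promoting complex. Ube2c, its ubiquitin-conjugating enzyme, ranged from -0.78 to 1.01 (median 0.22) over normal arrays and from -2.81 to 1.96 (median 0.89) over OSCC arrays, and its difference was -3.82 in animal 24 and 1.90 in animal 26. Cdc20, its activator, ranged from -0.26 to 1.05 (median 0.51) over normal arrays and from -1.74 to 2.21 (median 1.08) over OSCC arrays. Pttg1, securin, which it destroys to free the chromatids, ranged from -1.25 to 0.37 (median -0.44) over normal arrays and from -2.81 to 1.03 (median -0.14) over OSCC arrays. The mean differences were 0.16 ± 0.46 (adjusted p = 0.79), 0.25 ± 0.34 (adjusted p = 0.56) and -0.14 ± 0.36 (adjusted p = 0.77) in that order, so all 3 lay within their error of 0. Each had its lowest array in the tumor of animal 24.

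The mitotic kinases and survivin, 6 genes, were all above 0 on average, and 0 of them passed, also at an unadjusted p below 0.05. Aurka, of the spindle poles, ranged from -2.45 to -1.03 (median -1.52) over normal arrays and from -2.27 to 0.14 (median -0.64) over OSCC arrays, with a difference of 0.54 ± 0.29 (adjusted p = 0.14). Plk1, active through much of mitosis, ranged from -1.46 to -0.41 (median -1.0) over normal arrays and from -3.17 to 1.10 (median -0.01) over OSCC arrays, with a difference of 0.53 ± 0.33 (adjusted p = 0.2). Plk4, which starts centriole copying, ranged from -2.67 to -1.36 (median -1.97) over normal arrays and from -3.95 to -0.41 (median -1.30) over OSCC arrays, with a difference of 0.39 ± 0.28 (adjusted p = 0.26). Aurkb and Birc5 belong to the chromosomal passenger complex. Aurkb ranged from -2.50 to -1.12 (median -1.59) over normal arrays and from -3.92 to 0.07 (median -1.06) over OSCC arrays, with a difference of 0.20 ± 0.36 (adjusted p = 0.65). Birc5, survivin, ranged from -1.97 to -0.07 (median -1.0) over normal arrays and from -3.37 to 0.49 (median -0.39) over OSCC arrays, with a difference of 0.03 ± 0.43 (adjusted p = 0.96), the smallest of the kinases and survivin. Nek2, a centrosome kinase, ranged from -4.40 to -2.78 (median -3.63) over normal arrays and from -5.98 to -1.81 (median -2.90) over OSCC arrays, with a difference of 0.21 ± 0.38 (adjusted p = 0.66).

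Of the spindle motors and midzone proteins 0 of 7 were called, and 0 had an unadjusted p below 0.05. Kif2c, a microtubule-depolymerizing kinesin, had the largest difference. It ranged from -5.08 to -2.70 (median -3.97) over normal arrays and from -5.92 to -1.43 (median -2.59) over OSCC arrays, with a difference of 0.60 ± 0.50 (adjusted p = 0.33), and stood clear of background on 5 arrays of normal tissue and 7 of OSCC. Tpx2 ranged from -2.93 to -1.27 (median -2.11) over normal arrays and from -4.09 to 1.04 (median -1.07) over OSCC arrays, with a difference of 0.58 ± 0.39 (adjusted p = 0.23). Kif11, the motor that separates the spindle poles, ranged from -1.88 to -0.51 (median -1.21) over normal arrays and from -3.52 to -0.11 (median -0.92) over OSCC arrays, with a difference of -0.06 ± 0.28 (adjusted p = 0.87). Kif20a, a kinesin of cytokinesis, ranged from -1.45 to 0.11 (median -0.61) over normal arrays and from -3.36 to 1.05 (median 0.04) over OSCC arrays, with a difference of 0.18 ± 0.39 (adjusted p = 0.71). The remaining 3 act at the midzone, where the daughter cells part. Kif23 ranged from -0.63 to 0.87 (median 0.00) over normal arrays and from -2.40 to 1.14 (median 0.52) over OSCC arrays, with a difference of -0.05 ± 0.30 (adjusted p = 0.91). Racgap1, its partner in centralspindlin, ranged from -1.36 to 0.13 (median -0.54) over normal arrays and from -3.20 to 0.97 (median 0.04) over OSCC arrays, with a difference of 0.11 ± 0.35 (adjusted p = 0.81). Prc1, which bundles midzone microtubules, ranged from -1.38 to 0.16 (median -0.57) over normal arrays and from -3.35 to 0.13 (median -0.51) over OSCC arrays, with a difference of -0.33 ± 0.33 (adjusted p = 0.41).

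Of the kinetochore and centromere genes 0 of 5 were called, and 1 had an unadjusted p below 0.05. Cenpe, a kinetochore motor, ranged from -6.76 to -5.32 (median -6.12) over normal arrays and from -6.89 to -4.19 (median -5.82) over OSCC arrays and stood clear of background on 5 OSCC arrays and on 0 of normal tissue, with a difference of 0.67 ± 0.30 (adjusted p = 0.08). Cenpf had the lowest difference of the role. It ranged from -2.84 to -0.90 (median -2.04) over normal arrays and from -4.70 to -1.31 (median -2.05) over OSCC arrays, with a difference of -0.48 ± 0.30 (adjusted p = 0.19), higher in 5 pairs and lower in 6. Cenpa, the histone that marks centromeres, ranged from -5.18 to -1.92 (median -2.64) over normal arrays and from -6.09 to -1.01 (median -1.74) over OSCC arrays, with a difference of 0.23 ± 0.55 (adjusted p = 0.74) and 3 OSCC arrays and 1 normal array did not measure it above background. Ndc80 and Nuf2 bind microtubules together. Ndc80 ranged from -3.41 to -1.64 (median -2.70) over normal arrays and from -4.16 to -0.80 (median -1.62) over OSCC arrays, with a difference of 0.27 ± 0.34 (adjusted p = 0.52). Nuf2 ranged from -2.71 to -1.21 (median -1.91) over normal arrays and from -3.03 to -0.29 (median -1.29) over OSCC arrays, with a difference of 0.35 ± 0.29 (adjusted p = 0.32).

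Foxm1 and Mybl2, transcription factors that drive mitosis genes, had mean differences near 0 and large spreads. Foxm1 ranged from -4.39 to -2.00 (median -2.97) over normal arrays and from -5.67 to -1.92 (median -2.57) over OSCC arrays, with a difference of 0.04 ± 0.40 (adjusted p = 0.95). Mybl2, B-Myb, ranged from -4.27 to -1.55 (median -2.43) over normal arrays and from -6.25 to -0.82 (median -2.01) over OSCC arrays, with a difference of 0.00 ± 0.51 (adjusted p = 1.0), and was not well above background in the tumors of animals 17, 21, 22 and 24. Top2a, the topoisomerase that untangles sister chromatids, ranged from -2.32 to -0.29 (median -0.98) over normal arrays and from -3.69 to 0.53 (median -0.58) over OSCC arrays, with a difference of -0.02 ± 0.39 (adjusted p = 0.96). It too was lower in animals 17, 21, 22 and 24 and higher in the other 7 pairs.

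Of the 55 genes, 13 had a second probe, and 9 of these had the same sign of difference as the brightest one. The sign was the opposite for the second probes of Prc1 (0.15), Top2a (0.25), Mybl2 (0.35) and Bub1 (-0.53). The gap between the probes of a gene was 0.27 in the median and 0.81 at most, and 1 second probe was called, that of Rrm2.

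Other genes of the same processes were taken from lists that hold none of the 55. For comparison, 6.86% of all probes were called higher and 6.97% lower, and 54.9% had an unadjusted p below 0.05 in either direction by limma. Of 36 other replication genes with a probe, 0 were called higher and 1 lower by limma (7 and 8 at an unadjusted p below 0.05). This was Pola2, the partner subunit of Pola1, lower in 11 of 11 pairs, from -2.00 to -0.99 (median -1.43) over normal arrays and from -3.26 to -1.81 (median -2.49) over OSCC arrays, with a difference of -1.03 ± 0.13 (adjusted p = 0.00034). Of 58 other mitosis genes, 2 were called higher, Ska3 and Pkmyt1, and 1 lower, Fam64a. Ska3, a kinetochore protein that stood clear of background on 0 normal arrays, differed by 1.30 ± 0.30 (adjusted p = 0.0052). Pkmyt1, an inhibitory kinase of Cdk1, differed by 1.08 ± 0.37 (adjusted p = 0.033). Fam64a, now called Pimreg, was lower in 11 of 11 pairs and differed by -1.46 ± 0.22 (adjusted p = 0.00067). Of 11 E2F, DP, pocket protein and MuvB genes, 1 was called higher and 1 lower. E2f3, a transcription factor of the S phase genes, was higher in 11 of 11 pairs, with a difference of 1.23 ± 0.18 (adjusted p = 0.00057), and clear of background on 5 OSCC arrays and on 0 of normal tissue. As for Ska3 and Cenpe, no lower limit above 1-fold could be set for it. Tfdp2, a partner of E2F factors, was lower in 9 of 11, with a difference of -1.17 ± 0.29 (adjusted p = 0.0081). The medians of the 3 lists were 0.11, 0.14 and 0.15. Some genes in these counts and medians stood well above background on 0 arrays of either tissue. These were Gins3 and Orc4 of replication, and Cdkn3, Gtse1, Hmmr, Kif14 and Kif4 of mitosis. Orc4 is among the 8 replication genes counted as lower at an unadjusted p below 0.05.

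Markers of several other tissues moved with the pairs, and their part in the differences above was not tested. The summed signal of 10 skeletal muscle markers was between 10.45 and 11.47 on the normal arrays and between 6.49 and 11.52 in OSCC. Its difference was 0.71 in animal 21, 0.29 in animal 22 and 0.53 in animal 24, -1.10 in animal 17, and between -4.26 and -1.87 in the other 7. The tumors in which most genes were lower thus had the highest summed muscle signal. This sum hides members that moved otherwise. Of the 10 markers, 6 were called lower and 1, Myh2, higher, by 2.17 ± 0.73 (adjusted p = 0.033). Actn3 was higher in 8 of 11 pairs and not called (1.80 ± 1.05, adjusted p = 0.17). The 6 fibroblast markers together differed by -0.93 to 0.96 in animals 17, 21, 22 and 24 and by 0.92 to 2.75 in the other 7. For 6 T cell markers these ranges were -1.45 to 1.06 and 1.23 to 3.18, and for 5 myeloid markers 0.13 to 0.94 and 1.81 to 3.17. Over all arrays the fibroblast sums were 5.73 to 6.56 in normal tissue and 5.63 to 8.78 in OSCC, the T cell sums -0.77 to 1.31 and -0.31 to 2.41, and the myeloid sums 1.82 to 2.72 and 2.56 to 5.08. Other lists did not follow the division. The 6 serous gland markers differed by 13.83 in animal 17 and 13.16 in animal 24, 5.42 in animal 21 and 4.20 in animal 22, and by 2.01 to 12.53 in the other 7, and for 5 endothelial markers the ranges were -1.16 to 0.09 and -0.93 to -0.20. The summed signal of the 4 suprabasal epithelial markers differed by 1.80 in animal 21, 1.50 in animal 22, -0.10 in animal 17 and -0.38 in animal 24, and by -1.43 to 0.25 elsewhere. Here too the sum hides members. In animal 24 Krt1 differed by -4.89 and Krt10 by -3.10, against -0.41 for Krt4 and -0.32 for Krt13. Over the 11 pairs Krt10 was called higher (1.66 ± 0.57, adjusted p = 0.035 by limma) and the other 3 were not called. The 3 B and plasma cell markers differed by -0.08 to 1.04 in the 4 and 0.37 to 2.62 in the 7. No marker in these lists was below background on every array.

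The labelled squamous carcinoma was checked against 6 markers of basal epithelium, among them the keratins Krt5 and Krt14. Their summed signal was 7.84 to 8.48 on the normal arrays, 7.27 to 8.96 in 10 of the tumors, and 4.75 in the tumor of animal 24. Krt5 ranged from 5.34 to 6.10 (median 5.78) over normal arrays and from 2.34 to 6.87 (median 6.11) over OSCC arrays, and the tumor of animal 24 differed from its normal partner by -3.53. The tumor with the lowest mitosis genes was thus also the one with the least basal epithelial signal. The sum is set by the brightest keratins and hides members that moved. Krt15 was called lower, in 11 of 11 pairs and with no overlap of the tissues, by -2.54 ± 0.23 (adjusted p = 7.0e-05). Itga6 was called higher, in 11 of 11 pairs, by 1.77 ± 0.24 (adjusted p = 0.0004). Krt5, Krt14, Tp63 and Col17a1 were not called. Without animal 24, 6 genes were called higher in place of 3 (7.29% of all probes), with Cdt1, Gmnn and Mad2l1 added to Cdc6, Rrm2 and Cdc25c. The pair of animal 24 held the lowest difference of 43 of the genes described here, so leaving it out had to raise their means. The larger count thus only describes the remaining pairs. Whether the low basal epithelial signal had a part in it was not tested.

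**Figure D4:**
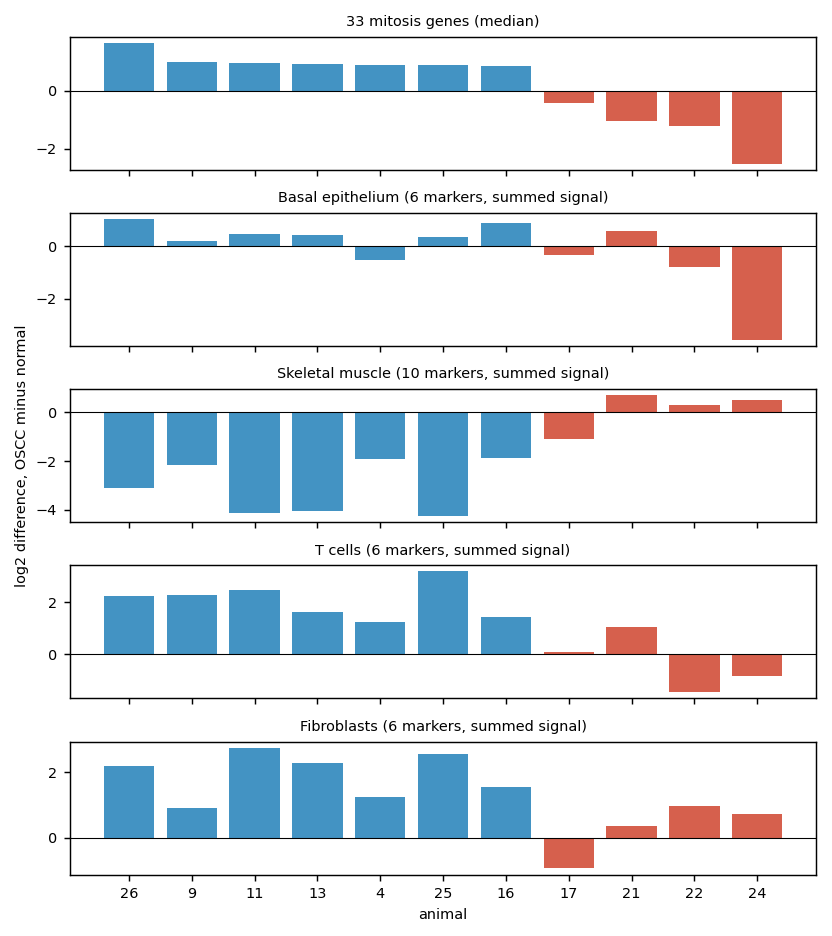
Log2 difference (OSCC minus normal) by pair of the median of the 33 mitosis genes and of the summed signal of the markers of 4 tissues, with animals 17, 21, 22 and 24 in red. Muscle signal differs by -4.26 to -1.87 in the 7 pairs where the mitosis median is above 0, and basal epithelial signal by -3.58 in animal 24.

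Scanning differed between the tissues. All 11 normal arrays were scanned on 1 day on 3 slides, whereas OSCC arrays lay on 4 other slides, 2 of them scanned on that day (animals 4 and 9) and 9 on another. In animals 4 and 9, scanned within the same day, 53 of 55 genes were higher in OSCC. All 4 tumors in which most genes were lower were scanned on the later day, as were 5 in which most were higher, and 3 of the 4 shared a slide with the tumor of animal 25, in which 54 of 55 genes were higher. With scan day as a term in the fit, 0 of the 55 genes and 0.0% of all probes were called higher, and with slide as a random block 3 were called (5.9% of all probes higher), Cdt1 in place of Rrm2.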

How the data were processed

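RNA of 11 pairs of OSCC and adjacent normal tissue was hybridized to 22 one-color arrays. The authors scanned them with Agilent Feature Extraction 9.5.3.1, which subtracts each spot's background and removes spatial trends, and deposited a processed intensity per spot in linear units that were not scaled across arrays. A deposited table of linear signal over each array's 75th percentile was tried as an alternative. The 75th percentile signal was 236.8 to 654.9 on normal and 338.7 to 1414 on OSCC arrays, and 48.4% to 56.08% and 52.27% to 65.49% of probes were well above background.

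Control spots and 9196 spots marked as outliers (0.975%) were left out, replicate spots were averaged as log2 intensities, and each array was set to 0 at its 75th percentile. No dim probe was removed. OSCC was compared with normal tissue in a paired limma model (version 3.58.1, under R 4.3.3) with Benjamini-Hochberg adjustment for 30367 probes. A call required an adjusted p below 0.05 and 2-fold. The scripts were tested on simulated data. Pairs come from 1 rat each, and residuals of paired tissues about each tissue's mean correlated between -0.21 and 0.24 (median -0.02). For a gene well above background on no normal array, the fold is a lower limit against the dimmest measurable signal. The number of arrays limits the precision, and p-values measure the spread between rats.

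All 55 genes are given with their levels, because the rule named the largest and smallest difference of each role, every gene that was measured without a call, and Pcna, Mcm2 and Mki67, and of the other lists the 3 largest rises and falls. Members, lists, markers and motifs were chosen with earlier results of these data known. Other scalings, background correction, the authors' table, slide, scan day, a dim filter, the methods' t-test and leaving out pairs were tried. Positions of probes are those of the array annotation on assembly rn4. The columns of the deposited tables hold no comparison of groups.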

Additional observations from a re-analysis of the deposited data

How the results depend on the processing

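The number of the 55 genes called depended on the scaling and on which rats were kept. It was 3 under the setting of the report, where 6.86% of all probes were called higher. It was 1 (replication 1, mitosis 0) under quantile normalization (6.39%) and with arrays scaled to their median (5.07%), 0 under normexp background correction (2.26%) and with scan day as a term (0.0%), and 16 (8 and 8, all higher) without animals 21, 22 and 24 (8.69%). The methods' t-test with adjustment left 1 replication gene (6.52% of all probes higher), and a filter on dim probes left 0 mitosis genes (7.95% of the probes kept higher). Without the replicate block that pairs the tissues of a rat, 3 genes were called, 2 of replication and 1 of mitosis, as with it. Leaving out 1 pair at a time gave 0 to 6 genes in all, 0 to 4 of replication and 0 to 2 of mitosis. The highest counts came without animal 24 and the lowest included those without animal 13 or 26. With scan day as a term 0.0% of all probes were called higher, because tissue was then compared within 2 pairs alone.

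The counts called among the other replication genes, other mitosis genes and cell cycle transcription regulators were 1, 3 and 2. All were 0 under normexp and with scan day, and without animals 21, 22 and 24 the first was 7 (6 higher, 1 lower) and the second 14 (13 higher, 1 lower), where 8.69% of all probes were called higher and 14.1% lower. The first was 0 with the 75th percentile over detected probes (7.93% of all probes higher) and 0 to 2 when 1 pair was left out. The third was 1 with the filter (7.95% of the probes kept higher) and with the mean over probes (6.65% higher). The E2F-type count fell from 12 to 7 and the CHR count of mitosis promoters from 18 to 11 when only the 250 bases before the start were read.

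By the signs of the genes, the pairs that stood apart did so under 4 of 5 scalings. Without normexp, 36 to 54 genes were lower in animals 17, 21, 22 and 24 and 1 to 12 in the others. Under normexp these counts were 5 to 50 and 3 to 24, so the division by sign was less clear there. The genes' median minus that of all probes ran from -1.21 to -0.52 and from -0.42 to 1.55. The value of -0.42 was that of animal 9, and the next lowest among those others was 0.66 in animal 16. It was animal 17 that had 5 genes lower under normexp, with a median of 1.05 against 1.57 for all probes, while animals 21, 22 and 24 had 44, 50 and 49. The cause was not tested.

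Genes whose mean lay near 0 changed sign with the setting. With arrays scaled to their median the log2 differences were -0.20 for Mcm7, -0.06 for Rfc3, -0.03 for Pola1, -0.07 for Prim1, -0.19 for Tk1, -0.14 for Ccnb1, -0.11 for Bub1b, 0.00 for Aurkb, -0.17 for Birc5, -0.02 for Kif20a, -0.04 for Ube2c, -0.17 for Foxm1 and -0.09 for Racgap1. Under quantile normalization they were -0.01 for Pola1, -0.05 for Bub1b, -0.03 for Nek2, -0.01 for Birc5 and -0.12 for Foxm1. With the percentile over detected probes they were 0.05 for Gins1, 0.06 for Top2a, 0.03 for Kif11, 0.04 for Kif23 and 0.09 for Mybl2. Under normexp they were 0.08 for Gins1, -0.08 for Pola1, -0.02 for Tyms, 0.02 for Top2a, 0.03 for Ccnb2, 0.08 for Kif11, 0.05 for Kif23, 0.18 for Mybl2 and 0.05 for Pttg1. The authors' table gave -0.05 for Foxm1, the mean over probes 0.12 for Top2a, -0.12 for Bub1 and 0.18 for Mybl2, and slide as a random block 0.04 for Top2a and 0.08 for Mybl2.

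With scan day as a term and, after it, without animals 21, 22 and 24, the differences were 0.39 and 0.40 for Gins1, 0.71 and 0.72 for Top2a, 0.54 and 0.55 for Ccnb2, 0.49 and 0.46 for Kif11, 0.30 and 0.49 for Kif23, 0.11 and 0.09 for Cenpf, 0.25 and 0.27 for Prc1, 0.59 and 0.98 for Mybl2, and 0.55 and 0.55 for Pttg1. With 1 pair left out at a time, the ranges that crossed 0 were -0.16 to 0.36 for Birc5, -0.06 to 0.32 for Bub1b, -0.08 to 0.38 for Ccnb1, -0.34 to 0.13 for Ccnb2, -0.09 to 0.65 for Cenpa, -0.14 to 0.34 for Foxm1, -0.15 to 0.15 for Gins1, -0.16 to 0.17 for Kif11, -0.17 to 0.20 for Kif23, -0.08 to 0.10 for Mcm7, -0.26 to 0.40 for Mybl2, -0.26 to 0.16 for Pttg1, -0.02 to 0.39 for Racgap1, -0.14 to 0.26 for Tk1, -0.20 to 0.27 for Top2a and -0.02 to 0.56 for Ube2c. Signal over background limits Pole, Cenpe and Cdc25c, which were well above background on 0 normal arrays.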
